A study of Mus musculus with 14 samples.

Results

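The genes described here are 10 cytosolic heat shock genes of the mouse, chosen by gene symbol from the 18562 genes listed in either of 2 count tables, where all 10 were found in both. They were the heat shock factors Hsf1 and Hsf2, the HSP70 proteins Hspa8 and Hspa1b, the HSP110 proteins Hsph1 and Hspa4, the J-domain proteins Dnaja1 and Dnajb1, and the HSP90 proteins Hsp90aa1 and Hsp90ab1. RNA had been measured by SMART-Seq2, a protocol that turns the mRNA of 1 or a few cells into amplified full-length cDNA, in 14 libraries of mouse oocytes. The groups were ovulated CKO oocytes (n = 3), ovulated WT oocytes (n = 3), GV CKO oocytes (n = 4) and GV WT oocytes (n = 4). GV oocytes, named for the germinal vesicle that is their large nucleus, wait in the prophase of meiosis, which ovulated oocytes have left. By the genotype labels every mouse carried the floxed allele of Clpx, which encodes the ATPase of a mitochondrial matrix protease. CKO stands for Clpxfl/fl; Zp3-Cre, in which the Zp3 promoter drives Cre in growing oocytes, and WT stands for Clpxfl/fl without Cre, so the Cre transgene itself was present in CKO mice only. The titles of the 3 ovulated WT samples read Clpxfl/f, while their genotype field reads Clpxfl/fl. The labels speak of single-cell samples but give neither ages nor the animals or oocytes behind a library, so p-values measure the spread between these samples, which may be technical.

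HSF1 is the main activator of the heat shock response and a maternal factor of mouse oocytes, and HSF2 is a related factor best known from gametogenesis and brain development. The chaperones form a cycle: J-domain proteins deliver clients to HSP70 and stimulate its ATPase, HSP110 proteins exchange its nucleotide, and HSP90 receives a subset of clients from it. HSPA8 and HSP90AB1 are the constitutive forms and HSPA1B and HSP90AA1 the stress-inducible forms of their families.

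Total counts per library lay between 25086506 and 28471453. Levels below are in CPM, counts scaled to a common library size with TMM, a correction for RNA composition. Clpx averaged 0.450 ± 0.158 CPM in ovulated CKO oocytes and 18.6 ± 1.60 CPM in ovulated WT oocytes (SD, n = 3 each), and 1.10 ± 0.346 CPM in GV CKO oocytes and 44.3 ± 9.16 CPM in GV WT oocytes (SD, n = 4 each). The groups did not overlap, and Clpx was 41.8-fold lower in ovulated CKO oocytes (adjusted p = 0.00123) and 40.2-fold lower in GV CKO oocytes (adjusted p = 6.48e-06). All 13 oocyte markers exceeded 1 CPM in every group. Their summed level was 13050 to 16730 CPM in ovulated libraries and 25500 to 58190 CPM in GV libraries, while the markers of granulosa and cumulus cells summed to 61.4 to 122 CPM in ovulated libraries and 40.2 to 75.7 CPM in GV libraries. Of the 17 markers of those cells, 11 were listed in both tables, and Amhr2 and Lhcgr had no count in ovulated CKO libraries. Markers of theca, stroma, endothelium and blood summed to 47.5 to 113 CPM in ovulated libraries and 20.4 to 44.8 CPM in GV libraries, which did not overlap. Of those 11 markers 6 were listed in both tables, and Col1a1 had no count in ovulated WT and Cdh5 none in GV CKO libraries.

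Promoter sequences were examined for the pair of inverted GAA units that forms the core of heat shock elements, the sites that heat shock factors bind. RefSeq promoters of build GRCm38.p6, from 250 bases before to 50 after the start, were at hand for 6 of the 10 genes (Dnaja1, Dnajb1, Hsf2, Hspa1b, Hspa4 and Hsph1) and not for Hsf1, Hspa8, Hsp90aa1 and Hsp90ab1. Both orders of the pair, GAANNTTC and TTCNNGAA, read the same on either strand and can overlap each other. One of them stood in the promoters of Dnaja1, Hsph1 and Hspa1b, against 15.1% of all 32851 promoters of that length. The sequences of these 3 genes are shown because they hold the pair, which is in capitals, as the 150 bases before the start on the gene's own strand. They lie at chr4:40722318-40722467 on the plus strand (Dnaja1), chr5:149636337-149636486 on the minus strand (Hsph1) and chr17:34959239-34959388 on the minus strand (Hspa1b).
Dnaja1: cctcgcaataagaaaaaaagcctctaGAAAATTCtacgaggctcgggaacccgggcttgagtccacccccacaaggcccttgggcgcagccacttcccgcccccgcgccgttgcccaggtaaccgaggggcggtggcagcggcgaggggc
Hsph1: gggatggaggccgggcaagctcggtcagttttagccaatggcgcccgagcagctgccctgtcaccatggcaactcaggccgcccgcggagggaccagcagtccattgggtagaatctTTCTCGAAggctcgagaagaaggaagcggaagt
Hspa1b: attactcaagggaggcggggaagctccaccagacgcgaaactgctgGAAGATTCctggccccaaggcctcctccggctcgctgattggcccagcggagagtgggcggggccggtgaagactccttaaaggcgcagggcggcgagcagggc
The pair began 124 bases before the start in Dnaja1, 33 bases before the first listed start in Hsph1 and 104 bases before the start in Hspa1b. Hsph1 held 2 further pairs after its first listed start, at bases 37 to 44 and 42 to 49, which overlap and so make 3 alternating units in a row, an arrangement in 0.603% of all promoters. Counted from a further listed start of Hsph1, the pairs lay at bases -54 to -47, 16 to 23 and 21 to 28. The Hsph1 bases shown lie within the span annotated for the gene, chr5:149616843-149636498. The 3 genes with a pair did not behave alike: Dnaja1 and Hsph1 fell between the stages, while Hspa1b was near the limit of detection throughout, as described next. A match of letters is a description and not evidence that a factor binds there.

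The first comparison asked how these transcripts differ between ovulated and GV oocytes. In CKO oocytes 5 of the 10 genes fell (Hspa8, Dnajb1, Dnaja1, Hspa4 and Hsph1), 2 rose (Hsf1 and Hsp90ab1) and 3 did not pass. In WT oocytes, whose libraries are separate from the CKO libraries, the test called the same genes in the same directions. Both comparisons came from the same fit of all 14 libraries, with a shared estimate of the spread, so they are not independent. In both genotypes Hspa8 and the J-domain genes Dnaja1 and Dnajb1 were lower in ovulated oocytes, and Hsp90ab1 was higher. The stages differed widely in general: 28.8% of 13001 genes were higher and 28.0% lower in ovulated CKO oocytes, and 31.2% were higher and 32.8% lower in ovulated WT oocytes, so 7 calls among 10 genes is close to the share over all genes. The median log2 fold change of the 10 genes was -0.74 in CKO and -0.46 in WT oocytes, beside -0.02 in CKO and -0.01 in WT oocytes over all genes. Values are shares of a library, so fewer copies of a transcript and a change in the rest of the RNA, or fewer cells and less RNA per cell, cannot be told apart. SMART-Seq2 primes at poly(A) tails, whose length was not measured, so a change in tail length cannot be told apart from a change in amount either. The summed oocyte markers given above were lower and those of theca, stroma, endothelium and blood higher in ovulated libraries, and their part in these differences was not tested. The stages are also separate tables, and a difference in how they were made cannot be told apart from the stage.

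**Figure D1:**
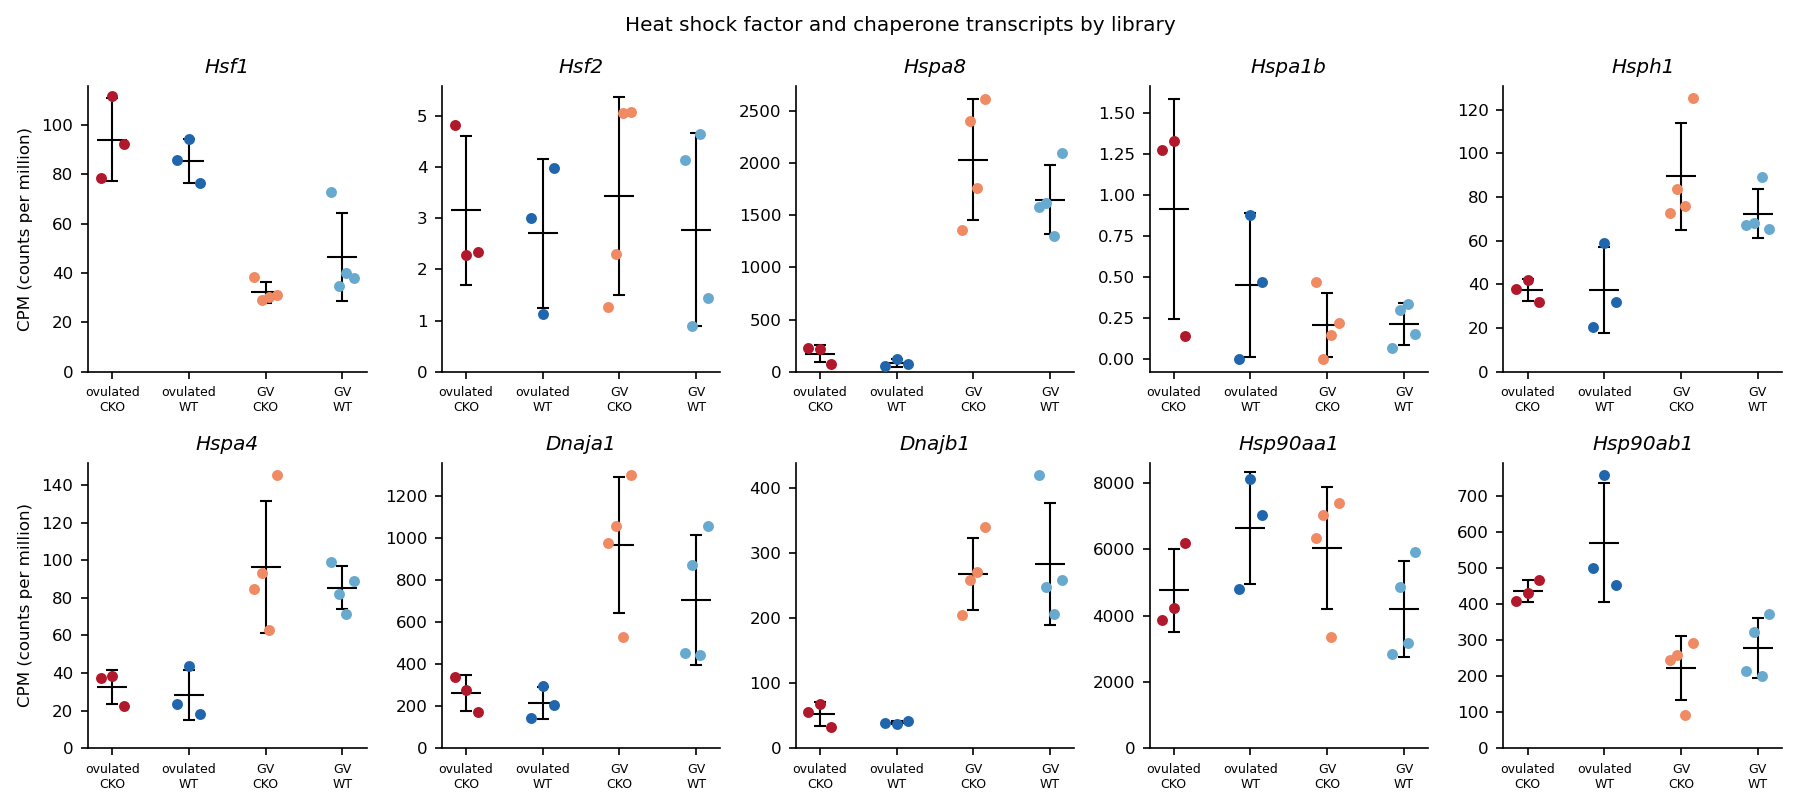
Level of each of the 10 genes in CPM (linear axis, separate scale for each gene) in ovulated CKO, ovulated WT, GV CKO and GV WT oocytes. Points are libraries, the horizontal line is the group mean and the bars are ± 1 SD (n = 3 per ovulated group, n = 4 per GV group). Hspa8 lies between 56.4 and 227 CPM in the 6 ovulated libraries and between 1306 and 2611 CPM in the 8 GV libraries.

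Hsf1 was higher in ovulated oocytes. It had 78.4, 112 and 92.3 CPM in ovulated CKO libraries and 85.7, 94.3 and 76.3 CPM in ovulated WT libraries, against 38.5, 29.1, 30.4 and 31.1 CPM in GV CKO libraries and 73.0, 34.95, 40.0 and 38.0 CPM in GV WT libraries. Every ovulated library was above every GV library, and GV WT replicate 1 stood apart from the other GV libraries. The difference in CKO oocytes was 3.07-fold (log2 fold change 1.62 ± 0.267 SE, adjusted p = 0.000115). In WT oocytes it was 1.89-fold (0.92 ± 0.265, adjusted p = 0.00647). Of all genes tested, 13.0% had as large a rise in CKO oocytes and 30.5% in WT oocytes.

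Hsf2 was scarce at both stages, with 4.82, 2.29 and 2.34 CPM in ovulated CKO libraries, 3.01, 1.12 and 3.99 CPM in ovulated WT libraries, 1.28 to 5.07 CPM in GV CKO libraries and 0.897 to 4.65 CPM in GV WT libraries. The groups overlapped throughout. Its stage difference was -0.08 in CKO oocytes (95% interval -1.35 to 1.20) and -0.03 in WT oocytes (95% interval -1.31 to 1.24) on the log2 scale. These intervals leave room for a difference of more than 2-fold in either direction, so none was detectable at this level. Per length, Hsf1 averaged 69.1 FPKM and Hsf2 1.57 FPKM in ovulated CKO oocytes, and 22.6 and 1.16 FPKM in GV WT oocytes.

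Hspa8, which encodes the constitutive HSP70, showed the largest stage difference of the 10 genes in both genotypes. It had 227, 218 and 78.3 CPM in ovulated CKO libraries and 56.4, 126 and 72.6 CPM in ovulated WT libraries. In GV CKO libraries it had 1355, 2401, 1757 and 2611 CPM, and in GV WT libraries 1575, 1618, 1306 and 2101 CPM. The stages were far apart, the highest ovulated library being well below the lowest GV library. Hspa8 was 11.2-fold lower in ovulated CKO oocytes (log2 fold change -3.48 ± 0.453 SE, adjusted p = 2.01e-05) and 18.6-fold lower in ovulated WT oocytes (-4.22 ± 0.471, adjusted p = 3.32e-06). Only 2.88% of all genes tested fell as far in CKO oocytes, and 4.62% in WT oocytes. Ranked by FPKM among all genes of a library, Hspa8 stood at places 626 to 1733 in ovulated CKO and 1084 to 2188 in ovulated WT libraries, against 104 to 174 in GV CKO and 103 to 154 in GV WT libraries. The 3 snoRNA genes Snord14c, Snord14d and Snord14e lie within Hspa8 (chr9:40801276-40805202, plus strand), and how reads over them were assigned is not given in the sources used here.

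Hspa1b, which encodes a stress-inducible HSP70, was near the limit of detection. It had 1.27, 1.33 and 0.140 CPM in ovulated CKO libraries and 0, 0.878 and 0.465 CPM in ovulated WT libraries, at most 0.468 CPM in GV CKO libraries and at most 0.332 CPM in GV WT libraries. Ovulated WT replicate 1 and GV CKO replicate 2 had no count, which allows up to 0.110 and 0.151 CPM in those libraries (3 counts, counting error only). The stage difference did not pass in CKO oocytes (log2 fold change 2.18 ± 1.051 SE, adjusted p = 0.0867) or in WT oocytes (1.17 ± 1.056, adjusted p = 0.340). Leaving out 1 library gave 1.68 to 2.93 in CKO oocytes and 0.12 to 1.65 in WT oocytes, the 0.12 without ovulated WT replicate 2. Hspa1b failed the count filter among GV libraries alone and passed it among ovulated libraries, which favours a higher value in ovulated oocytes. Its transcript is 99.2% identical to that of the neighbouring Hspa1a over 2201 of 2803 bases, and its count was fractional in 9 of 14 libraries, so the split between the 2 genes is uncertain. Counted as 1 gene with Hspa1a, an alternative chosen after seeing the data, the stage difference was 1.42 in CKO oocytes and 0.40 in WT oocytes.

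The HSP110 genes fell by less than Hspa8. Hspa4 had 37.5, 38.5 and 22.3 CPM in ovulated CKO libraries and 23.5, 43.6 and 18.4 CPM in ovulated WT libraries, against 84.8, 93.3, 62.8 and 145 CPM in GV CKO libraries and 98.9, 81.9, 71.5 and 89.2 CPM in GV WT libraries. The stages did not overlap. Hspa4 was 2.83-fold lower in ovulated CKO oocytes (log2 fold change -1.50 ± 0.359 SE, adjusted p = 0.00215) and 2.87-fold lower in ovulated WT oocytes (-1.52 ± 0.360, adjusted p = 0.00154). Hsph1 had 37.9, 42.1 and 32.2 CPM in ovulated CKO libraries and 20.7, 59.1 and 32.2 CPM in ovulated WT libraries, against 72.8, 83.9, 76.0 and 125.5 CPM in GV CKO libraries and 67.03, 68.2, 89.0 and 65.5 CPM in GV WT libraries. Ovulated WT replicate 2 came closest to the GV libraries without reaching them. Hsph1 was 2.30-fold lower in ovulated CKO oocytes (-1.20 ± 0.337, adjusted p = 0.00637) and 1.85-fold lower in ovulated WT oocytes (-0.89 ± 0.333, adjusted p = 0.0281). Both Hsph1 calls were lost when libraries were scaled to total counts (-0.66, adjusted p = 0.149 in CKO and -0.60, adjusted p = 0.173 in WT), and the WT call also without ovulated WT replicate 1 (-0.67, adjusted p = 0.0771) or replicate 3 (-0.88, adjusted p = 0.0548). Without ovulated WT replicate 2 the WT value was -1.51 (adjusted p = 0.000644).

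Both J-domain genes were lower in ovulated oocytes. Dnajb1 had 56.5, 68.9 and 33.5 CPM in ovulated CKO libraries and 38.3, 38.0 and 42.5 CPM in ovulated WT libraries, against 206, 258, 271 and 340.0 CPM in GV CKO libraries and 420.3, 248, 207 and 259 CPM in GV WT libraries. The stages were separated by a wide gap in both genotypes. Dnajb1 was 4.85-fold lower in ovulated CKO oocytes (log2 fold change -2.28 ± 0.322 SE, adjusted p = 3.73e-05) and 6.98-fold lower in ovulated WT oocytes (-2.80 ± 0.331, adjusted p = 4.90e-06). Dnaja1 had 341, 278 and 171 CPM in ovulated CKO libraries and 145, 296 and 208 CPM in ovulated WT libraries, against 976, 1061, 528 and 1303 CPM in GV CKO libraries and 453, 875, 444 and 1057 CPM in GV WT libraries. The GV libraries of each genotype spread over more than a factor of 2, yet all stood above the ovulated ones. Dnaja1 was 3.53-fold lower in ovulated CKO oocytes (-1.82 ± 0.421, adjusted p = 0.00168) and 3.15-fold lower in ovulated WT oocytes (-1.65 ± 0.418, adjusted p = 0.00255). Dnaja1 (chr4:40722468-40734965, plus strand) overlaps Smu1 and Gm6297 on the other strand and Mir207 on its own, and whether the counting used strand is not given in the sources used here.

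Of the 2 cytosolic HSP90 genes, Hsp90ab1 passed between the stages. Hsp90ab1 had 409.7, 431 and 468 CPM in ovulated CKO libraries and 499, 759.7 and 453 CPM in ovulated WT libraries, against 246, 258, 92.1 and 292 CPM in GV CKO libraries and 215, 323.5, 201 and 373 CPM in GV WT libraries. Each ovulated library exceeded each GV library, with GV CKO replicate 3 the lowest. Hsp90ab1 was 2.05-fold higher in ovulated CKO oocytes (log2 fold change 1.03 ± 0.354 SE, adjusted p = 0.0201) and 2.13-fold higher in ovulated WT oocytes (1.09 ± 0.354, adjusted p = 0.0131). The CKO call was lost without ovulated CKO replicate 2 (0.93, adjusted p = 0.0551), without ovulated CKO replicate 3 (0.87, adjusted p = 0.0727) and without GV CKO replicate 3 (0.67, adjusted p = 0.0614). The WT call was lost without ovulated WT replicate 2 (0.71, adjusted p = 0.0965).

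Hsp90aa1 was the most abundant of the 10 transcripts in every group. It had 3865, 4214 and 6187 CPM in ovulated CKO libraries and 4788, 8107 and 7024 CPM in ovulated WT libraries, against 6348, 7027, 3360 and 7402 CPM in GV CKO libraries and 2851, 4871, 3170 and 5904 CPM in GV WT libraries. The stages overlapped in both genotypes. The stage difference was -0.29 ± 0.367 in CKO oocytes (adjusted p = 0.522) and 0.71 ± 0.363 in WT oocytes (adjusted p = 0.0951) on the log2 scale. Scaling to total counts made the WT difference pass (1.08, adjusted p = 0.00124) and turned the CKO value positive (0.24, adjusted p = 0.429), and the WT difference also passed without GV WT replicate 4 (0.95, adjusted p = 0.0384). Over all single libraries left out, the WT value lay between 0.44 and 0.95.

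**Figure D2:**
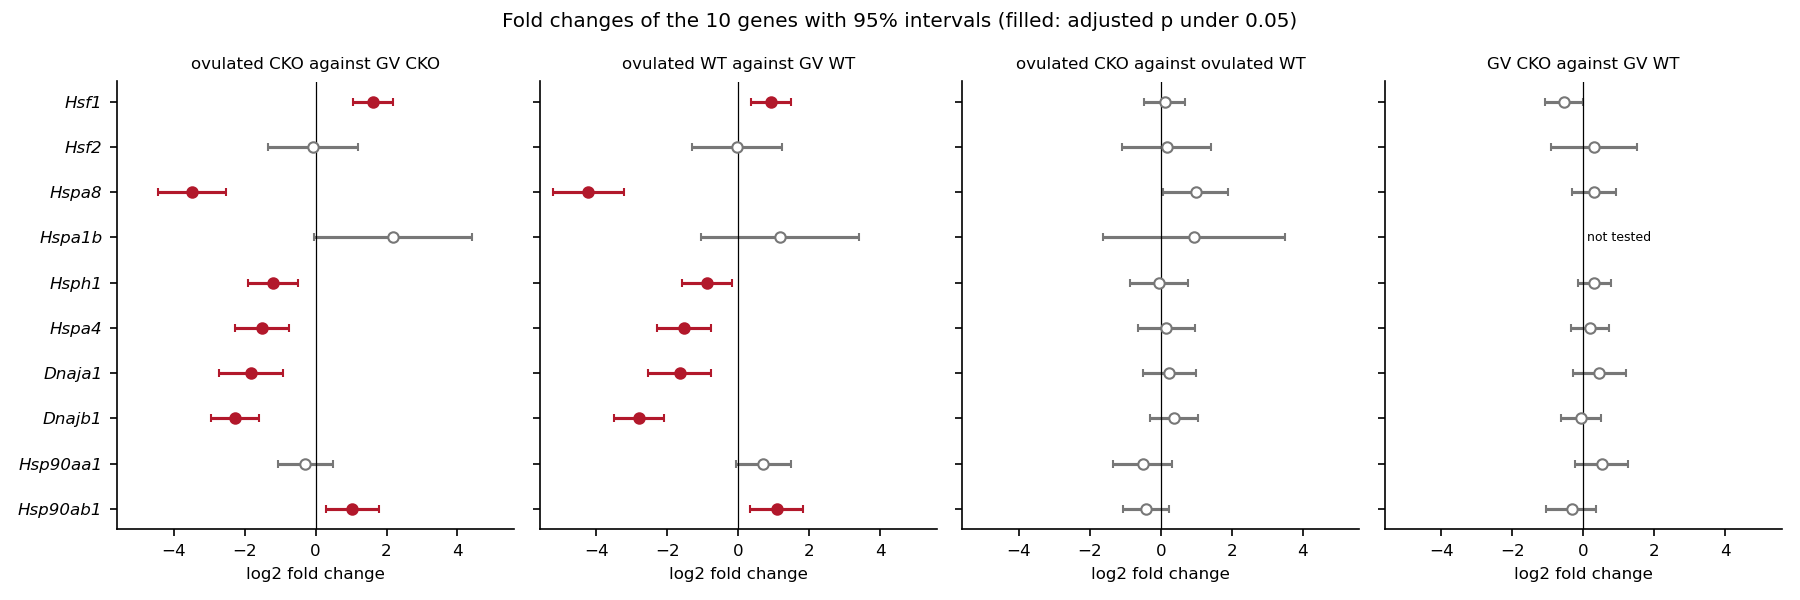
Log2 fold changes of the 10 genes (rows) with 95% intervals from edgeR in 4 comparisons (panels), with the first-named group over the second. Filled red points passed an adjusted p of 0.05. The 7 filled points of each stage panel are the same genes, with Hspa8 at -3.48 in CKO and -4.22 in WT oocytes and Hsf1 at 1.62 in CKO and 0.92 in WT oocytes, and no point is filled in either genotype panel.

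Per transcript length, the order of the genes differed between stages. In ovulated WT oocytes mean FPKM ran from Hsp90aa1 (2996) over Hsp90ab1 (295), Dnaja1 (81.6), Hsf1 (56.7), Hspa8 (54.2), Dnajb1 (16.5), Hsph1 (14.0), Hspa4 (7.72) and Hsf2 (1.23) to Hspa1b (0.220). Dnaja1 and Hsf1, Hsf1 and Hspa8, Dnajb1 and Hsph1, and Hsph1 and Hspa4 overlapped as neighbours in that order. In GV WT oocytes it ran from Hsp90aa1 (1435) over Hspa8 (811), Dnaja1 (197), Hsp90ab1 (110.1), Dnajb1 (97.2), Hsf1 (22.6), Hsph1 (21.9), Hspa4 (18.1) and Hsf2 (1.16) to Hspa1b (0.0750). There, Hsp90ab1 and Dnajb1, Hsf1 and Hsph1, and Hsph1 and Hspa4 overlapped. Hsp90ab1 thus took place 2 in ovulated WT oocytes and place 4 in GV WT oocytes, while Hspa8 took place 5 in ovulated WT and place 2 in GV WT oocytes. In CKO oocytes Hspa8 took place 3 when ovulated (115 FPKM, overlapping with Dnaja1 at 102 FPKM) and place 2 at the GV stage (874 FPKM). Together the 10 genes took 0.618% to 0.771% of the counts in ovulated CKO and 0.565% to 1.25% in ovulated WT libraries, against 0.663% to 0.826% in GV CKO and 0.615% to 0.723% in GV WT libraries.

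The second comparison asked what the loss of Clpx changed in these genes. None of the 10 genes tested passed between ovulated CKO and ovulated WT oocytes, and none of the 9 tested passed between GV CKO and GV WT oocytes, where Hspa1b was below the count filter. Over all genes 0.0083% passed in ovulated oocytes (1 gene, which is Clpx) and 0.0245% in GV oocytes (3 genes), with 935 and 704 genes at an unadjusted p under 0.05. DESeq2 called 114 genes in ovulated and 39 in GV oocytes, and none of the 10 genes. For none of the genes tested did CKO and WT levels separate at either stage, beside 10.6% of all genes in ovulated oocytes and 3.78% in GV oocytes. The median log2 fold change of the 10 genes was 0.16 in ovulated and, over 9 genes, 0.29 in GV oocytes, beside 0.00 in ovulated and 0.02 in GV oocytes over all genes.

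In ovulated oocytes the smallest unadjusted p among the 10 belonged to Hspa8. It averaged 174 ± 83.4 CPM in CKO and 85.0 ± 36.5 CPM in WT oocytes (SD, n = 3 each), a log2 fold change of 0.98 with a 95% interval of 0.07 to 1.90 (adjusted p = 0.617). CKO replicates 1 and 2 were above all WT libraries, and replicate 3, at 78.3 CPM, was below the highest WT library. Leaving out 1 library gave log2 fold changes of 0.71 to 1.37, with adjusted p-values from 0.128 (1.28, without CKO replicate 3) to 0.9997 (0.79, without CKO replicate 2). The HSP90 genes had values below 0, with -0.51 for Hsp90aa1 (95% interval -1.34 to 0.32) and -0.42 for Hsp90ab1 (-1.06 to 0.23), neither of which passed. Hsf1 was at 0.11 (-0.46 to 0.68), Dnajb1 at 0.37 (-0.30 to 1.04), Dnaja1 at 0.24 (-0.51 to 0.98), Hspa4 at 0.16 (-0.65 to 0.97) and Hsph1 at -0.04 (-0.86 to 0.78). For these 5 genes the bounds allow differences of up to about 2-fold. Intervals were wider for the scarce genes, with 0.17 for Hsf2 (-1.10 to 1.43) and 0.95 for Hspa1b (-1.62 to 3.51).

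In GV oocytes the smallest unadjusted p belonged to Hsf1. It averaged 32.3 ± 4.24 CPM in CKO and 46.5 ± 17.8 CPM in WT oocytes (SD, n = 4 each), a log2 fold change of -0.54 with a 95% interval of -1.08 to -0.01 (adjusted p = 0.834). The WT mean was raised by 1 library at 73.0 CPM, and without it the log2 fold change was -0.22, while leaving out another library gave values down to -0.66. Hsp90aa1 was at 0.52 (-0.23 to 1.26), Dnaja1 at 0.45 (-0.30 to 1.20), Hspa8 at 0.30 (-0.32 to 0.92), Hsph1 at 0.31 (-0.16 to 0.77), Hspa4 at 0.18 (-0.36 to 0.71), Dnajb1 at -0.08 (-0.64 to 0.49) and Hsp90ab1 at -0.33 (-1.04 to 0.37). None of these passed.

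Whether the effect of the CKO genotype differed between ovulated and GV oocytes was tested directly. None of the 10 genes passed, beside 0.00769% of all genes (1 gene by edgeR, 62 by DESeq2, 1185 at an unadjusted p under 0.05). The values farthest from 0 with a narrow enough interval to read were -1.0 for Hsp90aa1 (95% interval -2.09 to 0.10, adjusted p = 0.596), 0.74 for Hspa8 (-0.44 to 1.92, adjusted p = 0.783) and 0.70 for Hsf1 (-0.10 to 1.5, adjusted p = 0.617). Hspa1b had 1.01 with an interval of -2.19 to 4.21.

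The balance between chaperones within a library does not depend on how libraries are scaled. Hspa8 had 8.21, 7.22 and 1.77 FPKM per 100 FPKM of Hsp90aa1 in ovulated CKO libraries and 1.65, 2.17 and 1.44 in ovulated WT libraries, against 29.9, 47.9, 73.3 and 49.5 in GV CKO libraries and 77.5, 46.5, 57.7 and 49.9 in GV WT libraries. The stages did not overlap on this scale, and the genotypes overlapped at both stages. Hsp90ab1 had 12.2, 11.8 and 8.71 FPKM per 100 FPKM of Hsp90aa1 in ovulated CKO libraries and 12.0, 10.8 and 7.40 in ovulated WT libraries, against 4.45, 4.23, 3.16 and 4.54 in GV CKO libraries and 8.70, 7.65, 7.29 and 7.27 in GV WT libraries. The 4 GV CKO libraries were all below the 4 GV WT libraries.

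Over the 36 pairs of the 9 genes other than Hspa1b, 3 pairs separated CKO from WT in ovulated oocytes and 2 in GV oocytes. Over all pairs of genes tested and counted in every library, 11.3% of count ratios separated the genotypes in ovulated and 3.96% in GV oocytes, so both counts lie near that background. In GV oocytes the count ratio of Hsp90aa1 to Hsp90ab1 was 1.90-fold higher in CKO than in WT libraries, and that of Dnaja1 to Hsp90ab1 1.85-fold higher. Each had p = 0.0286 in a 2-sided exact permutation test, the smallest p that 4 against 4 libraries allow. After adjustment over the 36 pairs each had 0.514. With only 2 pairs at the smallest p, neither could pass this adjustment, so the adjusted test cannot decide on these ratios. In ovulated oocytes the exact test cannot go below p = 0.1, which the 3 separating pairs reached (adjusted 0.675).

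**Figure D3:**
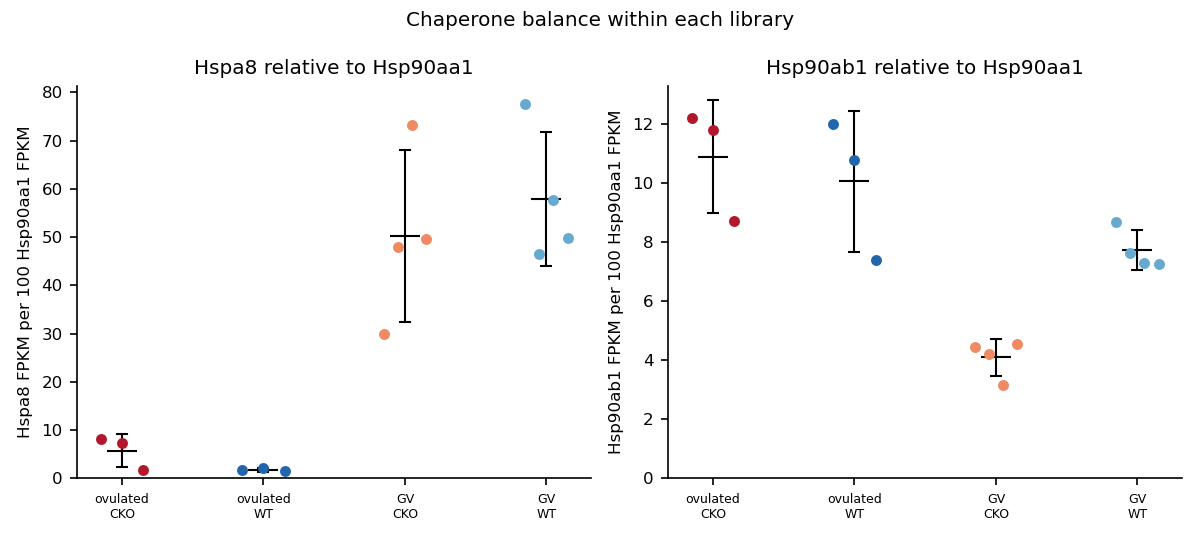
FPKM of Hspa8 (left) and of Hsp90ab1 (right) per 100 FPKM of Hsp90aa1 in the same library (linear axes from 0), in ovulated CKO, ovulated WT, GV CKO and GV WT oocytes. Points are libraries and bars are the mean ± 1 SD (n = 3 per ovulated group, n = 4 per GV group). The Hspa8 ratio is 1.44 to 8.21 in ovulated and 29.9 to 77.5 in GV libraries, and the Hsp90ab1 ratio is 3.16 to 4.54 in GV CKO and 7.27 to 8.70 in GV WT libraries.

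Other genes of the chaperone network were counted in 8 lists, which include the 10 genes where they belong. Of the 85 other genes, counted without the list of 6 meiotic genes described last, 65 were tested between stages. In CKO oocytes 16 were higher and 26 lower when ovulated, and in WT oocytes 18 were higher and 27 lower. Over all genes, 28.8% were higher and 28.0% lower in CKO oocytes, and 31.2% were higher and 32.8% lower in WT oocytes. Those shares also apply to each list below, where a count near them says little about the list. Medians of log2 fold changes were -0.33 in CKO and -0.24 in WT oocytes for the 65 genes. Between genotypes none of 63 tested in ovulated and none of 64 tested in GV oocytes passed, beside 0.0083% and 0.0245% of all genes.

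The chaperonin CCT, which folds actin and tubulin, and its partner prefoldin had the lowest median. Of 14 genes tested, 12 were lower and 1 higher in ovulated CKO oocytes, with a median of -1.94, and 11 were lower and 2 higher in ovulated WT oocytes, with a median of -2.03. Cct5 was 8.67-fold lower in CKO (adjusted p = 3.41e-05) and 13.6-fold lower in WT oocytes (adjusted p = 5.38e-06). Tcp1 was 4.94-fold lower in CKO and 7.07-fold lower in WT oocytes, and Cct3 was 5.85-fold lower in CKO and 8.09-fold lower in WT oocytes. Of the prefoldin subunits, Pfdn1 was 6.96-fold lower in CKO and 4.25-fold lower in WT oocytes, and Vbp1 3.51-fold lower in CKO and 3.92-fold lower in WT oocytes.

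HSP90 and its cochaperones were split. Of 21 tested, 9 were lower and 5 higher in ovulated CKO oocytes, and 8 were lower and 7 higher in ovulated WT oocytes. The genes named next were chosen by smallest p and were all among the lower ones. Pih1d1, a component of the R2TP complex, was 11.7-fold lower in CKO (adjusted p = 9.64e-05) and 23.9-fold lower in WT oocytes (adjusted p = 1.22e-05). Its levels were low after ovulation, with 0.455 to 2.73 CPM in ovulated CKO and 0.183 to 1.63 CPM in ovulated WT libraries. The size of its fold changes is therefore uncertain. Ttc4, a cochaperone with TPR repeats, was 7.40-fold lower in CKO and 5.75-fold lower in WT oocytes. Stip1, which bridges HSP70 and HSP90, was 3.80-fold lower in CKO and 4.31-fold lower in WT oocytes, and Ahsa2 was 4.19-fold lower in CKO and 3.64-fold lower in WT oocytes.

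Within the HSP70 and HSP110 family 8 genes were tested. In CKO oocytes 3 were higher and 3 lower, and in WT oocytes 4 were higher and 3 lower, the lower ones being Hspa8, Hspa4 and Hsph1. The higher ones were Hspa12a (3.61-fold in CKO and 3.12-fold in WT oocytes), Hspa14 (2.08-fold in CKO and 2.40-fold in WT oocytes), Hspa4l (1.76-fold in CKO and 2.04-fold in WT oocytes) and, in WT oocytes, Hspa2 (1.96-fold, adjusted p = 0.0345), which had 1.75-fold in CKO oocytes without passing (adjusted p = 0.0850). HSPA4L is a paralogue of HSPA4, so the 2 related HSP110 genes moved in opposite directions between the stages.

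Of 17 J-domain genes tested, 5 were higher and 3 lower in ovulated CKO oocytes, and 4 were higher and 6 lower in ovulated WT oocytes. Dnajc21, which acts in ribosome assembly, was 3.05-fold higher in CKO (adjusted p = 0.00210) and 5.58-fold higher in WT oocytes (adjusted p = 5.06e-05). Dnaja4, a relative of Dnaja1, was 2.90-fold higher in CKO and 2.69-fold higher in WT oocytes. Dnajc13, which encodes an endosomal protein, was 3.34-fold higher in CKO and 3.21-fold higher in WT oocytes. Dnajc5 passed in CKO oocytes (1.85-fold, adjusted p = 0.00329) and had 1.38-fold in WT oocytes (adjusted p = 0.0807), while Dnajc8 had 1.30-fold in CKO oocytes (adjusted p = 0.177) and passed in WT oocytes (2.01-fold, adjusted p = 0.00145). For neither gene did the difference between genotypes pass.

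Among 10 exchange factors and regulators of HSP70, 2 were higher and 4 lower in ovulated CKO oocytes, and 1 was higher and 5 lower in ovulated WT oocytes. Bag4 was 2.58-fold lower in CKO and 4.14-fold lower in WT oocytes, and Stub1, the ubiquitin ligase CHIP, 2.31-fold lower in CKO and 3.51-fold lower in WT oocytes. Bag6 passed in CKO oocytes (2.58-fold higher, adjusted p = 0.0202) and had 1.43-fold in WT oocytes (adjusted p = 0.340). Hspbp1, an inhibitor and exchange factor of HSP70, had 1.47-fold lower values in CKO oocytes (adjusted p = 0.608) and passed in WT oocytes (5.70-fold lower, adjusted p = 0.0353), from levels of at most 1.12 CPM in every group. Within each stage Hspbp1 failed the count filter, and it had at most 0.133 CPM in ovulated WT libraries, so its call says little.

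Of 5 genes in the list of heat shock factors and their regulators, 3 were higher and 1 lower in ovulated oocytes of each genotype. Hsbp1, whose product binds and inhibits HSF1, was 1.56-fold higher in CKO (adjusted p = 0.0228) and 2.18-fold higher in WT oocytes (adjusted p = 0.000399). Hsf5 was 1.52-fold higher in CKO and 2.07-fold higher in WT oocytes. The lower one was Hsfy2, with 0 to 0.0634 CPM in ovulated CKO and 0 to 0.133 CPM in ovulated WT oocytes, against 0.165 to 1.22 CPM in GV CKO and 0.256 to 0.689 CPM in GV WT oocytes. It passed the count filter through GV libraries, where it was higher, so its call says little. Small heat shock proteins were sparse, with 3 of 10 tested, of which Hspb6 passed in CKO oocytes (2.30-fold lower, adjusted p = 0.0220) and had 1.52-fold lower values in WT oocytes (adjusted p = 0.205).

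Of 6 meiotic genes known as targets of HSF1 in mouse oocytes, 3 were higher and 1 lower in ovulated CKO oocytes, and 4 were higher and 1 lower in ovulated WT oocytes. The cohesin gene Smc1b was 2.66-fold higher in CKO and 3.82-fold higher in WT oocytes, and Sycp1 of the synaptonemal complex 2.52-fold higher in CKO and 3.44-fold higher in WT oocytes. Msh4, a recombination gene, was 1.70-fold higher in CKO and 1.88-fold higher in WT oocytes. Hormad1 passed in WT oocytes (log2 fold change 1.91, adjusted p = 0.0186) and had 0.19 in CKO oocytes (adjusted p = 0.813). For Hormad1 the stage difference of the CKO effect did not pass (-1.72, adjusted p = 0.605). The cohesin gene Stag3 was 2.78-fold lower in CKO and 7.53-fold lower in WT oocytes. Its levels were low, with 0.385 to 1.72 CPM in ovulated CKO and 0.183 to 0.454 CPM in ovulated WT libraries. In GV libraries Stag3 had 1.87 to 4.30 CPM in CKO and 2.13 to 3.19 CPM in WT. These genes did not all move the way Hsf1 did.

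**Figure D4:**
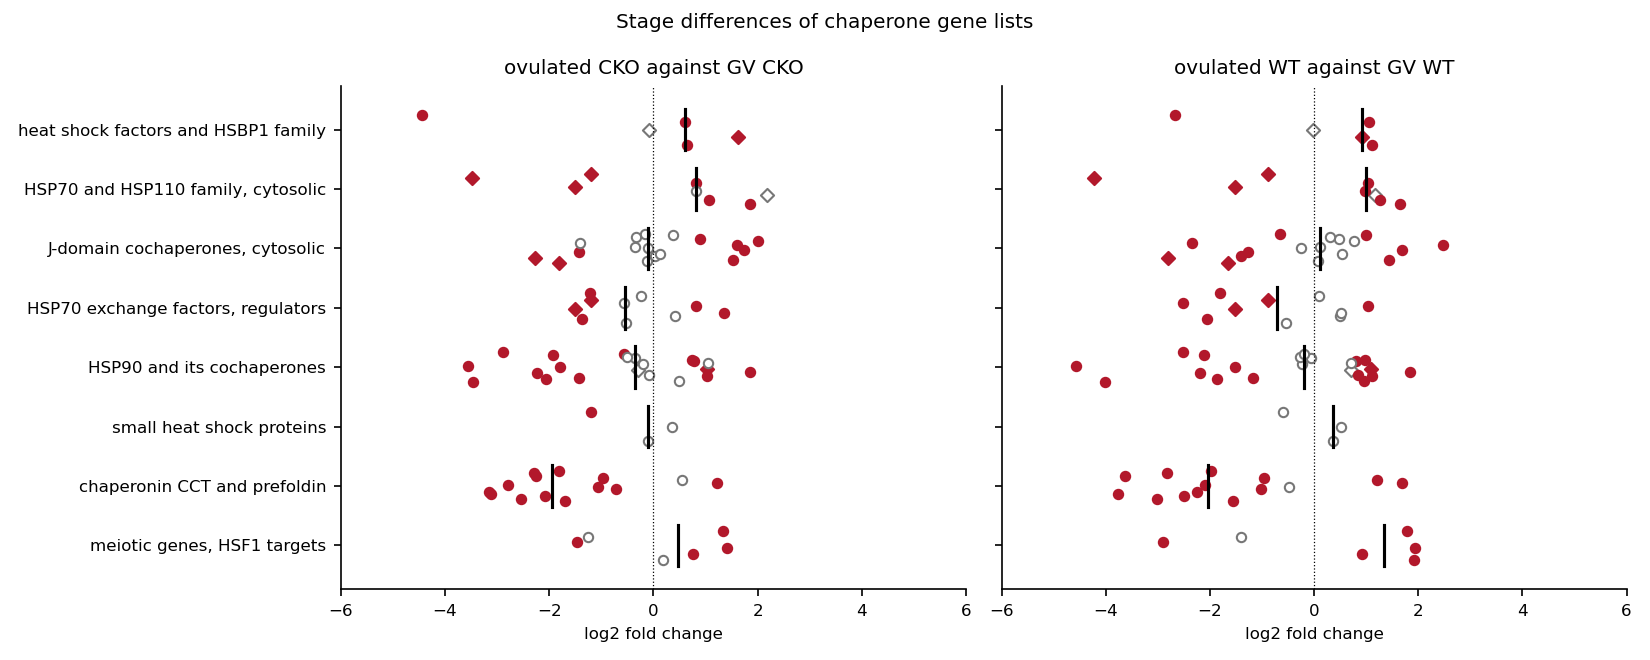
Log2 fold changes of ovulated over GV oocytes in CKO (left) and WT (right) for the genes of 8 lists (rows), with the first-named group over the second. Diamonds are the 10 genes described here and circles the other genes, filled red where the adjusted p was under 0.05, and black lines are list medians. The chaperonin and prefoldin row lies mostly left of 0, with medians of -1.94 in CKO and -2.03 in WT oocytes.

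The genes whose levels were most like those of Hsf1 and Hspa8 were found by Pearson's r of log2 CPM over the 14 libraries, among 6738 other genes with a mean of at least 10 CPM. For Hsf1 they were Unc5a, Phf1 and Fa2h, and for Hspa8 they were Nxf1, Cops3 and Gpn1. Only 4 genes reached an r of 0.95 with Hsf1, and 866 did with Hspa8. All 14 points share the difference between stages, so r is given within stages. With Hsf1, r over the 6 ovulated libraries was 0.791 for Unc5a, 0.667 for Phf1 and 0.727 for Fa2h, and over the 8 GV libraries it was 0.905 for Unc5a, 0.962 for Phf1 and 0.829 for Fa2h. With Hspa8, r over the 6 ovulated libraries was 0.969 for Nxf1, 0.946 for Cops3 and 0.974 for Gpn1, and over the 8 GV libraries it was 0.856 for Nxf1, 0.959 for Cops3 and 0.823 for Gpn1. GV WT replicate 1, where Hsf1 was highest among the GV libraries, is among the points of its r.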

How the data were processed

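For each stage the authors deposited gene-level read counts and FPKM values. The deposited counts are expected counts, since 14.45% to 16.32% of values per library were not whole, and they were rounded here. The deposited FPKM values had been scaled by the authors to length and depth, and were used for levels between genes. The build is mm10, per the submitters' processing notes; aligner, counter and strand setting are not given in the sources used here. SMART-Seq2 primes at poly(A) tails and amplifies by PCR, per the labels' protocols for the amplification, so counting limits cover counting error only and tail length was not measured.

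Genotypes were compared within a stage and stages in a fit of all 14 libraries on genes in both tables, with edgeR 4.0.16 in R 4.3.3 (TMM scaling, genes kept by filterByExpr at 10 counts, quasi-likelihood F-test with robust dispersion) and Benjamini-Hochberg adjustment over all genes tested at a threshold of 0.05. The test was checked on simulated counts for the size of planted differences and for finding larger ones more often. That check set no limit on false or missed calls. Alternatives were DESeq2 1.42.0, limma-voom (limma 3.58.1), other scalings and filters, a replicate block and leaving out each library.

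The 10 genes, the lists, tests and alternatives were chosen with earlier results of these data known. The text names the 10 genes, Clpx, up to 4 other passing genes per list and comparison by smallest p, and the 3 genes most like Hsf1 and Hspa8. Hormad1 was named in addition, as the remaining passing gene of the meiotic list. Genes in the lists were named from textbook knowledge. No library was left out, and replicate libraries differed by more than counting error, at 40.5 to 325 times the chi-square expected from it.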

Additional observations from a re-analysis of the deposited data

Results flagged for a closer look

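Of the 20 sets of 4 libraries examined (10 genes in the GV CKO and the GV WT groups), 2 held a library far from the other 3, and chance alone flags about 1 in 20. Hsf1 stood at 73.0 CPM in GV WT replicate 1, with a gap of 0.868 of the group's range to the next library. Hsph1 stood at 89.0 CPM in GV WT replicate 3, with a gap of 0.882 of the range. Both gaps exceed Dixon's critical value of 0.829 for 4 libraries. The groups of 3 ovulated libraries were not examined in this way.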

How the results depend on the processing

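Alternatives that kept all libraries changed none of the calls of the 10 genes, apart from scaling to total counts, where Hsph1 lost its stage call in both genotypes and Hspa1b (CKO, 2.66, adjusted p = 0.0481) and Hsp90aa1 (WT) gained one. Leaving out 1 library gave 6 to 7 calls in CKO and 6 to 8 in WT oocytes between stages, and 0 to 0 in both genotype comparisons and in their difference. Numbers of genes called over all genes moved more. DESeq2 called 114 in ovulated CKO against WT, 39 in GV CKO against WT and 62 for the stage difference of the CKO effect, and a fit of all 14 libraries called 62 in ovulated oocytes. A minimum mean of 10 CPM, which leaves fewer genes to test, gave 4776 calls in CKO and 5028 in WT oocytes between stages and 0 for the difference, where limma-voom also gave 0. With a library left out the counts were 1 to 201 in ovulated oocytes (201 without CKO replicate 3), 3 to 6 in GV oocytes, 6309 to 7714 between stages in CKO, 7472 to 8462 in WT oocytes and 0 to 500 for the difference; the cause was not tested. Scaling to total counts placed the median of all genes at 0.45 between stages in CKO and 0.26 in WT oocytes, -0.14 in GV CKO against WT and 0.26 for the difference.

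The replicate numbers are shared between groups. In ovulated oocytes, correlations of same-numbered CKO and WT deviations were -0.406 to 0.409, beside -0.436 to 0.545 for other-numbered ones. In GV oocytes the same-numbered values were -0.31, 0.284, 0.442 and 0.664 for replicates 1, 2, 3 and 4, beside -0.685 to 0.39 for other-numbered ones. The highest GV values were same-numbered, so these correlations do not settle whether the GV libraries were paired. With the replicate number as a block, 7 of the 10 genes were called between stages in each genotype and 0 between genotypes, and over all genes 1 in ovulated, 3 in GV, 5993 in CKO stages, 7116 in WT stages and 0 for the difference.

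Values near 0 that did not pass changed sign, here as log2 fold changes. In ovulated CKO against WT, Hsph1 had 0.01 with total counts, 0.09 with limma-voom and 0.09 with the block, and in GV CKO against WT Hspa4 had -0.07 with total counts. Between stages in CKO oocytes Hsf2 had 0.40 with total counts, 0.08 with limma-voom and 0.32 with the block, and Hsp90aa1 had 0.24 with total counts. In WT oocytes Hsf2 had 0.10 with total counts and 0.04 with limma-voom. For the difference, total counts gave 0.31 for Hsf2, 0.02 for Dnaja1 and 0.16 for Hsp90ab1, limma-voom 0.04 for Hsf2 and 0.08 for Hsp90ab1, the block 0.08 for Hsp90ab1, and DESeq2 and its size factors -0.05 for Hspa4. Leaving out 1 library turned the sign within these ranges: in ovulated CKO against WT, Hsf1 -0.02 to 0.25, Hsf2 -0.23 to 0.54, Hsph1 -0.37 to 0.45, Hspa4 -0.11 to 0.60 and Dnaja1 -0.03 to 0.52; in GV CKO against WT, Hsf2 -0.00 to 0.65, Hspa4 -0.11 to 0.33 and Dnajb1 -0.23 to 0.19; between stages, Hsf2 -0.62 to 0.17 in CKO and -0.52 to 0.29 in WT; for the difference, Hsf2 -0.52 to 0.33, Hsph1 -0.65 to 0.19, Hspa4 -0.24 to 0.48, Dnaja1 -0.45 to 0.12 and Hsp90ab1 -0.32 to 0.21. Hspa1b had at most 46.8 counts in a library and Hsf2 had 21 to 152 counts, the lowest of the 10 genes.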
